A study of Mus musculus with 461 samples.

Results

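Cells with and without transcripts of Pou5f1 (Oct4) were compared within the 59 single cells taken on day 4 of a reprogramming course, out of 461 cells in the series. The cells of both sides were chosen by their measured Pou5f1 level: a cell was called Pou5f1-positive when it stood at 1 TPM (transcript abundance corrected for gene length and scaled to the same total in every cell) or more. By this rule 24 of the 59 cells were positive and 35 were negative. Because Pou5f1 itself chose the cells, its levels are given only as a description and it is left out of every gene count and ratio that follows.

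The starting cells were OG2 transgenic mouse embryonic fibroblasts, a line with an Oct4 reporter that is green when switched on; the strain is given as 1/2 129SVJ with 3/8 C57B6 and 1/8 CBA. Fibroblasts were kept in medium with 10% fetal bovine serum, and reprogramming cells in iCD1, a chemically defined medium. Cells were captured on the Fluidigm C1, a device that isolates cells in separate chambers and makes one library from each. The course is called 7F in the titles, whose factors the labels do not name; the published 7F cocktail holds Jdp2, Kdm2b, Map2k6, Glis1, Nanog, Esrrb and Sall4, and does not contain Pou5f1. All 59 day 4 cells carry the title prefix b3, which no other day has, so that day and prefix cannot be told apart. Positive and negative cells share day, prefix, medium and starting cells, and the labels do not tie single cells to animals or cultures.

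Pou5f1 encodes a POU-domain transcription factor that, with Sox2, holds the gene network of the inner cell mass and of embryonic stem cells. Fibroblasts keep the locus silent, and its transcription from the native gene is a standard sign that a cell is on the way to pluripotency. The gene marks more than 1 state, since it is also transcribed in the epiblast, in the primitive streak while mesoderm and endoderm form, and in the germ line.

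Pou5f1 levels covered a wide range on the positive side. The lowest positive cell had 1.21 TPM, the median was 33.8 TPM and the highest cell had 268 TPM. The cells just inside the threshold had 1.21, 2.02 and 2.08 TPM, from 1, 2 and 1 Pou5f1 counts. Just outside it was 1 cell with 0.77 TPM, also from 1 count, and the other 34 negative cells had no Pou5f1 count. The side of these cells next to the threshold thus rested on 1 or 2 counts. Among the positive cells 6 were under 10 TPM and 18 were at 10 TPM or more. In a negative cell without counts, 3 counts would correspond to 1.59 to 9.41 CPM (counts per mega-count of the library), so weak transcription was not detectable there. The share of positive cells at day 4 was 40.7% (exact 95% interval 28.1% to 54.3%). In the untreated fibroblasts of day 0 the same threshold marked 1 of 20 cells of prefix b1 and 1 of 54 cells of prefix b2.

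Gene detection was close on both sides, and positive cells were the deeper ones. Positive cells held 0.36 to 3.05 M counts (M, mega; median 1.04 M), and negative cells 0.32 to 1.89 M (median 0.83 M). A median of 9978 genes had counts in positive cells and 9861 in negative cells. After every cell was thinned to 300000 counts the medians were 8595 and 8738 genes. Each side is 1 pool of cells from 1 set, so no test of the difference was possible and cells were not used as replicates. Counts were summed over the cells of a side, and the ratio of CPM + 1 is given on the log2 scale as positive over negative. A gene is called higher or lower when this ratio reached 2-fold. Of 10952 measured genes 785 were higher in positive cells (7.17%) and 1062 were lower (9.7%), with a median log2 ratio of -0.00. Intervals in brackets after CPM values are exact 95% Poisson intervals of the summed counts. They treat reads as independent counts and leave out the spread between cells. Because C1 reads carry no molecular identifiers, these intervals may be too narrow even for counting error. The interval of the share of positive cells is of another kind, since it treats cells as independent draws and does not cover counting error.

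Genes of the pluripotency network carried the largest ratios among genes found in many positive cells. By the rule for named genes (at least 20 CPM, 1 TPM or more in at least 50% of the cells of the higher side, and no cell with over 33.3% of its counts), the 12 highest were Porcn, Dppa5a, Utf1, Tfcp2l1, Slc7a3, Gdf3, Tdgf1, Zfp42, L1td1, Itpk1, Zfp296 and Zfp980. The order runs from a log2 ratio of 5.46 for Porcn to 2.79 for Zfp980. Of these 12 genes 8 belong to the pluripotency list. The other 4 are Porcn, which attaches a lipid to Wnt proteins, Slc7a3, a carrier of cationic amino acids, Itpk1, an inositol phosphate kinase, and the zinc finger gene Zfp980.

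The octamer ATGCAAAT is the sequence that POU factors such as Oct4 are known to bind. It was searched on both strands in the RefSeq promoter windows of the GRCm38.p6 build, which run from 250 bases before to 50 bases after a start site. Among the 12 highest genes 8 had such a window, and the windows of Zfp296 and Zfp42 held the octamer. Both are shown 5′ to 3′ on the gene's own strand, with the octamer, here in its reverse complement ATTTGCAT, in capitals.
Zfp296, chr7:19577037-19577336, plus strand: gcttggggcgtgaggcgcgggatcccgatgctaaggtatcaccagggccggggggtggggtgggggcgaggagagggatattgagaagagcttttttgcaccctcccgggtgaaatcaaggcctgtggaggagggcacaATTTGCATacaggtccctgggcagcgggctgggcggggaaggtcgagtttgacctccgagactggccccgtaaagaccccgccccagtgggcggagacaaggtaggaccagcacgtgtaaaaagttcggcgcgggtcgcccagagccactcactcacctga
Zfp42, chr8:43306960-43307259, minus strand: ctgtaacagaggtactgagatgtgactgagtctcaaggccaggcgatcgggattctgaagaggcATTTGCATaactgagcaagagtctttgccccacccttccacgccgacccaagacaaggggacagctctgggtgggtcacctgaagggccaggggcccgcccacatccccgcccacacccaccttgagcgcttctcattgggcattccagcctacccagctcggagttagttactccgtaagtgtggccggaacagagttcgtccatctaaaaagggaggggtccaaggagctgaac
The octamer begins 111 bases before the start site of Zfp296, which encodes a zinc finger protein, and 186 bases before that of Zfp42, which encodes the zinc finger protein Rex1. Over all 32851 windows the share with the octamer was 1.74%. It was 1.93% of 726 windows of genes higher in positive cells and 1.65% of 1028 windows of genes lower in them, against 1.26% of 10618 windows of measured genes. RefSeq windows were found for 585 of the 785 higher genes and 775 of the 1062 lower genes. A match is a match of letters only, and neither binding nor chromatin was measured here.

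Porcn had the highest ratio of the 12. Its level was 0 to 265 TPM in positive cells with a median of 7.89, and 0 to 4.93 TPM in negative cells with a median of 0. The ranges overlap at the low end only, because 9 positive cells were under 1 TPM. Porcn stood at 60.4 CPM (57.4 to 63.4) in positive and 0.40 CPM (0.21 to 0.68) in negative cells, and it was detected at 1 TPM or more in 15 of 24 and 4 of 35 cells.

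Dppa5a, which encodes an RNA-binding protein of early embryos and stem cells, reached 3410 TPM in positive cells, with a median of 89.2 and a minimum of 0. In negative cells it ran from 0 to 90.3 TPM with a median of 0. The highest negative cell thus lay near the median of the positive cells. Its summed level was 171 CPM (166 to 176) against 2.96 CPM (2.41 to 3.63), and 16 positive and 11 negative cells had 1 TPM or more.

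Tfcp2l1, a transcription factor of naive pluripotency, was the most widely shared of the 12, with 20 of 24 positive and 9 of 35 negative cells at 1 TPM or more. Its median was 15.3 TPM in positive cells (0 to 117) and 0.18 TPM in negative cells (0 to 30.3). Summed counts gave 172 CPM (167 to 177) and 10.7 CPM (9.61 to 11.9). Utf1, a chromatin protein of undifferentiated cells, had a median of 8.21 TPM in positive cells (0 to 274) and of 0 in negative cells (0 to 35.7). It was found in 14 positive and 5 negative cells, and its CPM were 38.9 (36.5 to 41.3) and 1.53 (1.14 to 2.02).

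Zfp42 was found in 13 positive and 8 negative cells. Its level ran from 0 to 292 TPM with a median of 4.11 on the positive side and from 0 to 53.3 TPM with a median of 0 on the negative side. The summed level was 60.7 CPM (57.7 to 63.8) against 5.09 CPM (4.35 to 5.93). Tdgf1 (Cripto), the coreceptor of Nodal, stood at 81.2 CPM against 6.90 CPM, and 86.2% of its counts on the negative side came from 1 cell.

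**Figure D1:**
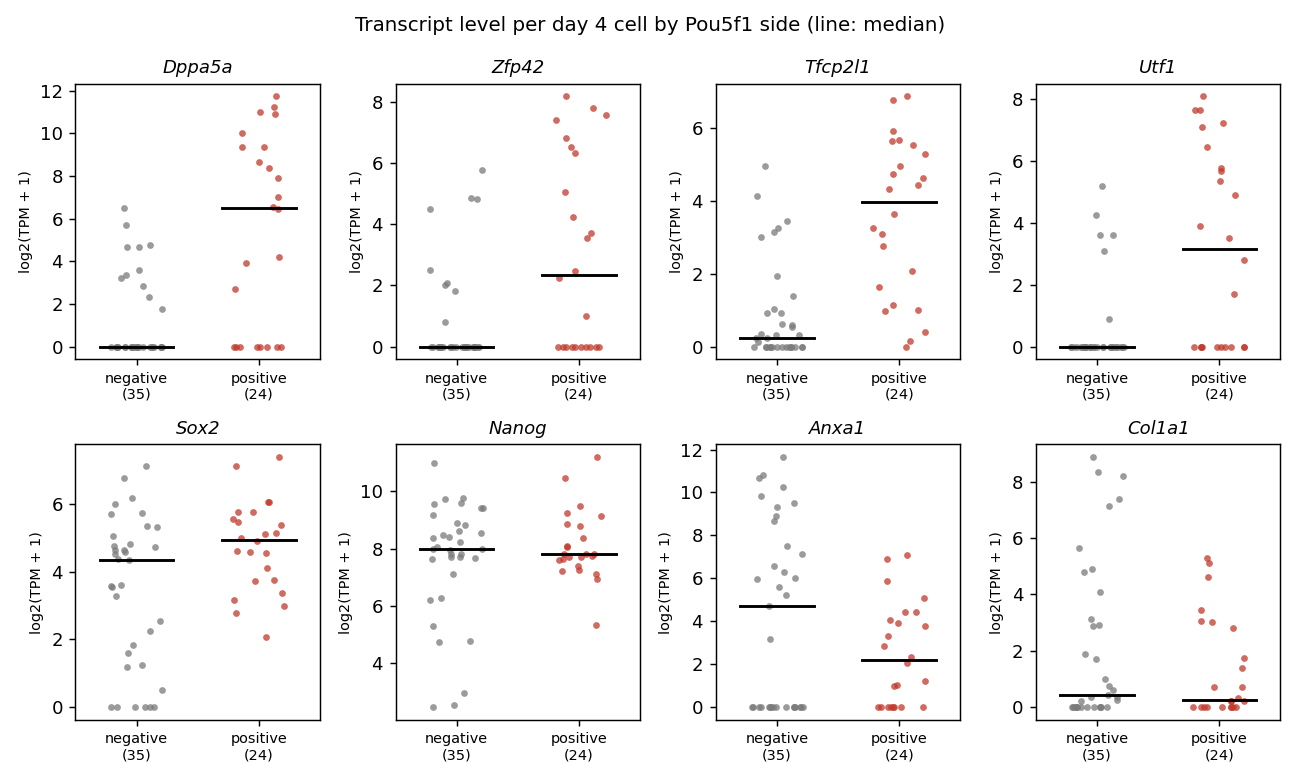
Level of 8 genes in each day 4 cell as log2(TPM + 1), with 35 Pou5f1-negative cells in grey, 24 Pou5f1-positive cells in red and the median as a black line. Dppa5a, Zfp42, Tfcp2l1 and Utf1 have their high cells on the positive side, Sox2 and Nanog have largely overlapping ranges, and the highest Anxa1 and Col1a1 values belong to negative cells.

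The pluripotency list held 26 genes, of which 25 were in the tables and 21 were measured. Of the 21 genes 15 were higher in positive cells, none was lower, and the median log2 ratio was 3.26, against 7.17% of all measured genes higher and a median of -0.00. A gene of this or a later list could pass the filter through the side where it is high, so each count describes measured members and not the whole list. Beside the 8 members above, the higher genes were Dppa2, Dppa3, Dppa4, Fbxo15, Nr0b1, Klf5 and Klf2. Dppa2, a chromatin factor of early embryos, had 23.8 CPM against 0.28 CPM and was found in 11 positive cells and 1 negative cell. Dppa3, a maternal factor also known as Stella, reached a log2 ratio of 3.26, but 68.8% of its positive counts lay in 1 cell, and it was 2.66 without the highest cell of each side. Prdm14, a regulator of naive pluripotency and the germ line, missed the filter with 151 counts in positive cells and none in negative cells. It was at least 63.6-fold higher, with 3 counts taken for the negative side as a whole, and 90.7% of its counts came from 1 cell.

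The 6 measured members that stayed under 2-fold included Sox2, the partner of Oct4. Sox2 ran from 3.19 to 165 TPM with a median of 29.7 in positive cells and from 0 to 137 TPM with a median of 19.2 in negative cells. Every one of the 24 positive cells and 28 of the 35 negative cells had it at 1 TPM or more, and the ranges overlapped almost fully. Its log2 ratio was 0.44. Tdh, a threonine-degrading enzyme of mouse embryonic stem cells, was detected in 22 positive and 24 negative cells at a log2 ratio of 0.89. Lin28a at 0.35, Klf4 at 0.77, Tbx3 at 0.05 and Trim71 at 0.33 were likewise under 2-fold, and each was found in at least 14 of the 35 negative cells. Pou5f1-negative cells therefore held several transcripts of the list.

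**Figure D2:**
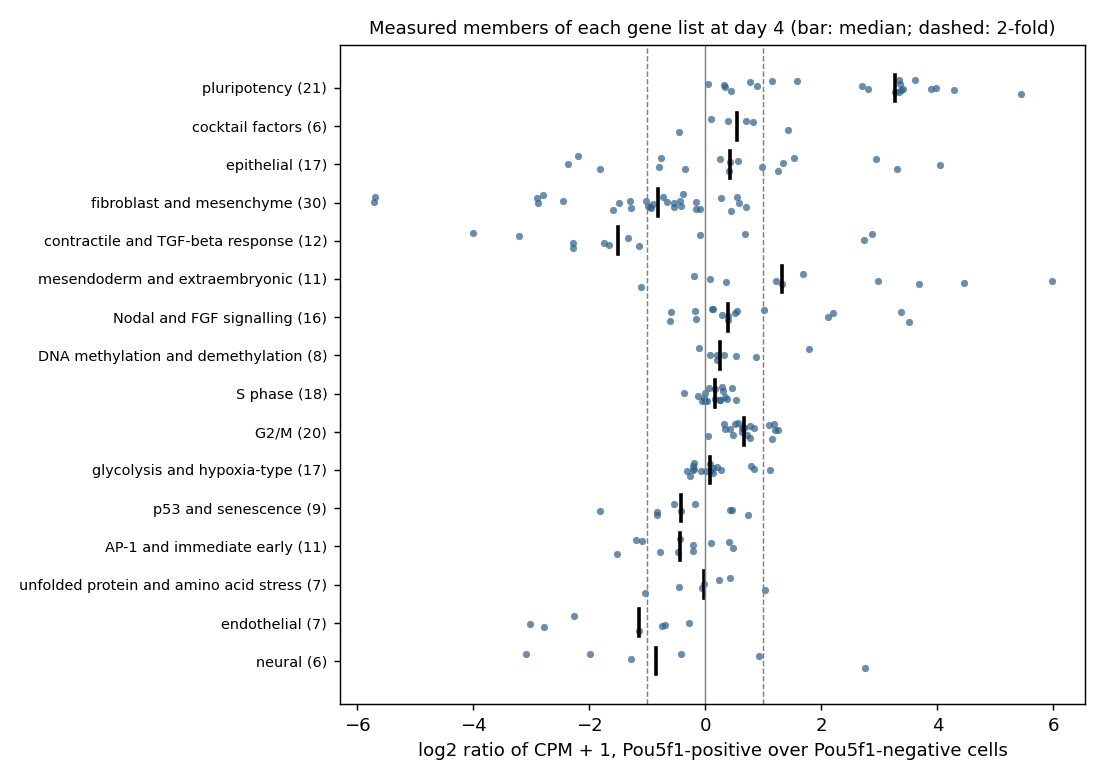
Log2 ratio of CPM + 1 (positive over negative cells) for each measured member of the gene lists with 5 or more measured members, with the median as a black bar and 2-fold as dashed lines. The pluripotency list has its median at 3.26 and the contractile list at -1.50, while the S phase and glycolysis lists lie within or near the 2-fold lines.

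The cocktail factors are encoded by genes that the cells may also carry as vectors, and gene counts do not separate vector from native transcripts. Of 6 measured factors 1 was higher (7.17% of all measured genes were), Sall4, a zinc finger protein of embryonic stem cells. Sall4 ran from 80.8 to 1311 TPM with a median of 470 in positive cells and from 1.17 to 1164 TPM with a median of 120 in negative cells. The ranges overlapped, and the summed levels were 1301 CPM (1288 to 1315) and 485 CPM (478 to 493). Nanog was present in all 59 cells, with medians of 222 TPM in positive and 254 TPM in negative cells and a log2 ratio of 0.39. Log2 ratios of the others were 0.82 for Esrrb, 0.69 for Jdp2, 0.11 for Kdm2b and -0.45 for Glis1. Map2k6, the kinase of the cocktail, missed the filter and was found in 6 positive and 3 negative cells.

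Positive cells differed widely in how many pluripotency genes they held. Of the 25 listed genes in the tables a positive cell had 7 to 25 at 1 TPM or more with a median of 14.5, and a negative cell 3 to 18 with a median of 8. After thinning to 300000 counts, with any count taken as detection, the medians were 13.5 and 7. At 12 genes or more there were 17 positive and 3 negative cells. At 20 genes or more there were 8 cells, all positive. These 8 cells had Pou5f1 levels of 11.4 to 123 TPM, with Zfp42 at 32.6 to 292 TPM, Dppa5a at 334 to 3410 TPM and Epcam at 10.2 to 86.4 TPM in each of them. They held 27.3% of the counts of the positive side but 94.9% of its Zfp42 counts, 94.8% of Dppa4, 89.9% of Dppa5a, 87.3% of Tdgf1 and 81.3% of Utf1. For Tfcp2l1 and Porcn the shares were 55.97% and 56.3%, and for Klf5, a Krüppel-like transcription factor, 14.8%.

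The ratios were therefore computed again without these 8 cells, which left 16 positive cells. Of the 21 measured pluripotency genes 11 were still higher and the median log2 ratio was 1.47. Tfcp2l1 was then at 3.17, Dppa2 at 3.28, Dppa5a at 2.65, Nr0b1, a nuclear receptor of stem cells, at 2.32, Gdf3 at 2.18 and Utf1 at 2.11. Zfp42 was at -0.21, Dppa4 at 0.02 and Tdgf1 at 0.94, all under 2-fold. The 8 cells were picked by their number of pluripotency genes, Zfp42 among them, so these values show where the counts lay. The ratio had to fall for each gene with more than 27.3% of its positive counts in the 8 cells. Klf5, with 14.8%, went from 1.58 to 1.80.

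As a description, with Pou5f1 the value that chose the cells, the positive cells are also given by their Pou5f1 level. The 4 highest cells had 130.67, 209.59, 247.46 and 268.33 TPM of Pou5f1 and 11 to 16 pluripotency genes. Zfp42 was at 0 in 3 of them and at 3.71 TPM in the other, and Dppa5a reached at most 126 TPM. T (brachyury), a T-box factor of the primitive streak and early mesoderm, stood in the same 4 cells at 11.09, 927.83, 590.97 and 0 TPM. Elsewhere T was above 100 TPM in 1 cell only, at 112.87 TPM, a positive cell with 22 pluripotency genes. The 6 positive cells under 10 TPM had 8 to 13 pluripotency genes, and the 18 cells at 10 TPM or more had 7 to 25, so that the ranges overlapped. In the 6 cells Dppa5a was at or under 5.42 TPM.

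**Figure D3:**
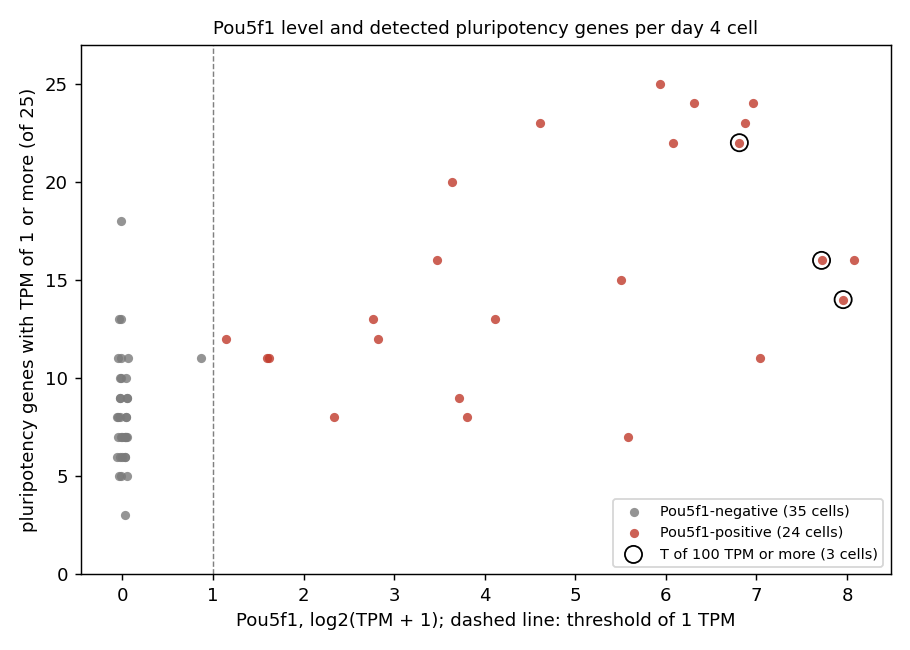
Pou5f1 level as log2(TPM + 1) against the number of the 25 pluripotency genes at 1 TPM or more, 1 point per day 4 cell, with the 3 cells at 100 TPM of T or more circled. The 8 cells with 20 genes or more have Pou5f1 between 11.4 and 123 TPM, and the 4 cells with more Pou5f1 than that have 11 to 16 genes.

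Genes of mesoderm and endoderm were also higher on the positive side, in few cells. Of 23 genes of the mesendoderm and extraembryonic list 11 were measured, and of these 7 were higher and 1 was lower (7.17% and 9.7% of all measured genes), with a median log2 ratio of 1.32. T had 163 CPM (158 to 168) against 1.63 CPM (1.22 to 2.13). It was found in 10 positive cells, at a highest level of 928 TPM, and in 7 negative cells, at a highest level of 29.3 TPM. The low cells of both sides overlap, and 55.5% of the positive counts came from 1 cell. Its log2 ratio was 5.97 with all cells and 5.27 without the highest cell of each side. Wnt3, the Wnt ligand that starts the primitive streak, had 32.4 CPM against 0.52 CPM in 7 positive and 3 negative cells. Mixl1, a streak homeobox gene, had a log2 ratio of 3.69 that rested on the deepest positive cell, which held 98.5% of its positive counts; without that cell it was -2.04. Tbx6 at 2.97, Foxa2 at 1.68, Cdx1 at 1.32 and Tfap2c at 1.21 were also higher, and Dab2, an endocytic adaptor of extraembryonic endoderm, was lower at -1.11.

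Nodal, a ligand that patterns the epiblast, and its inhibitors were higher as well. The Nodal gene had 16.4 CPM against 0.52 CPM and was found in 8 positive and 2 negative cells. Its feedback inhibitors Lefty1 and Lefty2 had log2 ratios of 2.19 and 2.11, with 63.5% of the positive Lefty1 counts in 1 cell. Of 16 measured members of the Nodal and FGF list 5 were higher (7.17% of all measured genes were) and none was lower. The other 2 higher ones were Tdgf1 and Fgfr3. The receptors Fgfr1 at -0.17 and Fgfr2 at -0.18 and the feedback genes Spry2 at 0.12 and Dusp6 at 0.55 stayed under 2-fold.

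Epithelial genes were mixed. Of 17 measured genes 6 were higher and 3 were lower (7.17% and 9.7% of all measured genes), and the median log2 ratio was 0.44. Epcam, an adhesion protein of epithelia and stem cells, was detected in 15 positive and 6 negative cells. Its level ran from 0 to 86.4 TPM with a median of 3.88 in positive cells and from 0 to 88.5 TPM with a median of 0 in negative cells. The ranges were alike because 1 negative cell held 87.3% of the negative counts. The log2 ratio of Epcam was 1.33. It was 2.67 without the highest cell of each side, and -0.49 without the 8 cells of 20 or more pluripotency genes. Cdh1 (E-cadherin) was found in 21 of 24 positive and 12 of 35 negative cells, with medians of 18.3 and 0 TPM, and its log2 ratio of 0.97 was just under 2-fold.

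The other higher epithelial genes were Ap1m2, a sorting adaptor of polarised epithelia, at 4.04, the tight junction gene Cldn6 at 3.30, the keratin Krt8 at 2.95 (-4.87 to -1.05 in the same split of 4 other sets), the protease inhibitor Spint1 at 1.53 and the splicing factor Esrp2 at 1.25. Ap1m2 and Cldn6 were each found in 6 positive cells, and 65.6% of the positive Krt8 counts came from 1 cell. In the same split at days 1, 3, 5 and 7 Cldn6 had 0.00, -2.27, 0.40 and -2.90, with 0 CPM on both sides at day 1. The lower genes were the keratins Krt7 at -2.36 and Krt19 at -2.18 and the desmosomal gene Perp at -1.81. For Krt7 1 negative cell held 83.7% of the negative counts, and the ratio was -0.46 without the highest cell of each side. Krt18, the usual partner of Krt8, was at -0.76.

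By the same naming rule the 12 lowest genes were Anxa1, Cavin1, Vcam1, Anxa2, Gng11, Capn2, Tab1, Plaur, Fyn, Pla2g4a, Enox2 and Spred3, from a log2 ratio of -4.39 to -2.33. Anxa1, a calcium-dependent membrane-binding protein, ran from 0 to 3226 TPM with a median of 25.01 in negative cells and from 0 to 135 TPM with a median of 3.59 in positive cells. It was detected in 19 of 35 and 15 of 24 cells, so that shares of cells were alike and the high cells set the ratio. Its summed level was 283 CPM (277 to 288) in negative and 12.5 CPM (11.2 to 13.97) in positive cells.

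Vcam1, a cell adhesion molecule, differed in the number of cells, with 18 of 35 negative and 3 of 24 positive cells at 1 TPM or more. Its highest level was 225 TPM in negative and 4.81 TPM in positive cells, and its CPM were 30.8 (28.95 to 32.8) and 1.51 (1.08 to 2.07). Similar shares were found for Tab1, an activator of the kinase TAK1, in 19 negative and 5 positive cells, for Fyn, a Src-family kinase, in 19 and 5, for Plaur, the urokinase receptor, in 18 and 4, and for Pla2g4a, a cytosolic phospholipase, in 19 and 3. Cavin1, a coat protein of caveolae, was found in 22 negative and 10 positive cells at a log2 ratio of -4.15.

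Fibroblast genes were lower in positive cells in part. Of 30 measured genes of the fibroblast and mesenchyme list 11 were lower (9.7% of all measured genes were), none was higher, and the median log2 ratio was -0.81. The largest differences were in Col6a1 at -5.71 and Col6a2 at -5.69, which encode chains of collagen VI, followed by Thy1, a fibroblast surface protein, at -2.89, the matrix protein gene Thbs1 at -2.87, Col1a1 at -2.80 and the intermediate filament gene Vim at -2.46. Vim was found in 23 positive and 34 negative cells, with medians of 65.5 and 172 TPM. Fn1 (fibronectin) was found in every cell at a log2 ratio of -0.90. The mesenchymal transcription factor genes Twist1 at 0.55, Twist2 at 0.70 and Prrx1 at 0.58 were under 2-fold. Single cells set the values of 2 of them: without the highest cell of each side Twist1 was at -0.59 and Twist2 at -2.25. Of 12 measured genes of contraction and the TGF-beta response 8 were lower, among them Tagln at -4.00 and Acta2 (smooth muscle actin) at -3.21. The 2 higher ones, Ankrd1 and Des, had 91.2% and 90.8% of their positive counts in 1 cell.

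A few cells held most of the counts of some of these genes. Col1a1 was at 140 to 470 TPM in 5 cells, all negative, and its highest level in a positive cell was 38.6 TPM. The 5 cells held 13.9% of the counts of the negative side but 90.96% of its Col1a1 counts, 93.96% of Col6a1, 98.9% of Thy1, 84.4% of Tagln, 89.6% of Acta2 and 75.5% of Anxa1. For Vim the share was 59.6%, for Thbs1 43.1%, for Pdgfra 16.2% and for Fn1 8.15%, and for Tab1, Fyn and Enox2 it was 10.3%, 9.15% and 8.54%. Each of the 5 cells had 28 to 31 of the 32 listed fibroblast genes at 1 TPM or more and no Cdh1.

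The cells were picked by Col1a1, so leaving them out had to lower the level of Col1a1 and of genes high in the same cells on the negative side. Without these 5 cells 5 fibroblast genes were lower and 3 were higher, with a median log2 ratio of -0.03. The lower ones were Col6a1 at -2.04, Col6a2 at -3.65, Pdgfra at -1.23, Thbs1 at -2.28 and Vim at -1.36, and the higher ones were Col1a2 at 1.58, Postn at 2.72 and Prrx1 at 1.14. Col1a1 was then at 0.37 and Thy1 at 0.24. Anxa1 was at -2.59 and Tagln at -1.62, still lower, and Acta2 was at -0.32. Of the 12 contractile genes 2 were lower in place of 8, and their median was -0.12. One of the 5 cells was the negative cell with 0.77 TPM of Pou5f1, just under the threshold. With this cell counted as positive Col6a1 was at -0.24, Anxa1 at -0.90 and 6 fibroblast genes were lower. The pluripotency count of 15 of 21 genes was the same without the 5 cells.

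**Figure D4:**
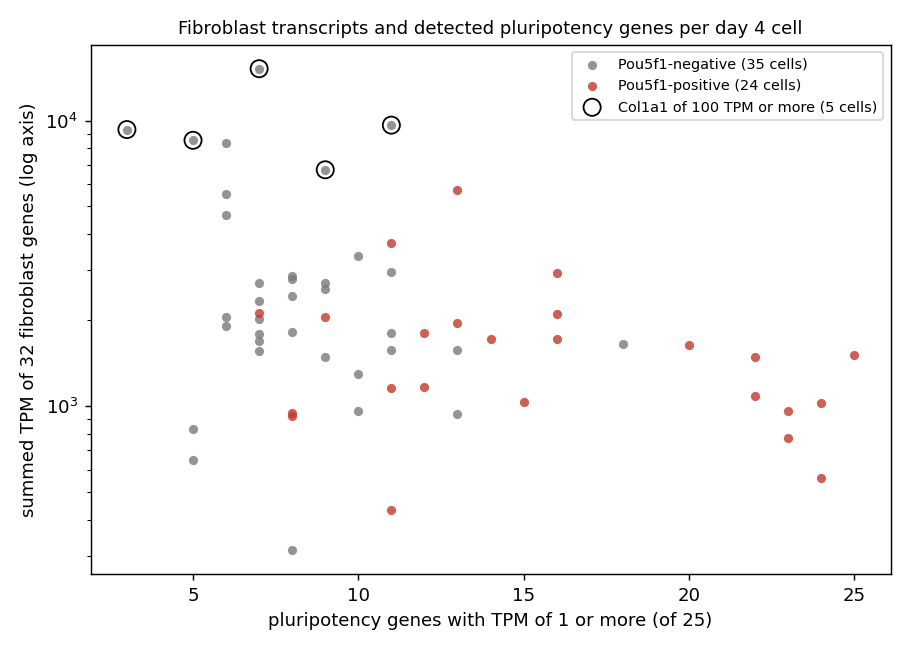
Number of the 25 pluripotency genes at 1 TPM or more against the summed TPM of the 32 fibroblast genes (log axis), 1 point per day 4 cell, with the 5 cells at 100 TPM of Col1a1 or more circled. The circled cells are Pou5f1-negative, have 3 to 11 pluripotency genes and lie at 6721 to 15182 TPM of fibroblast transcripts, and the highest positive cell lies at 5720 TPM.

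Genes of the G2 and M phases of the cell cycle were shifted by a small amount in the ratios of summed counts. The medians per cell lay further apart. The summed level of the 20 genes had a median of 2808 TPM in positive cells (128 to 6161) and of 707 TPM in negative cells (64.8 to 6695). All 20 measured genes had a ratio above 0, and the median was 0.66. By 2-fold 5 were higher (7.17% of all measured genes were): Kif11 at 1.25, Ccnb1 at 1.21, Cdc20 at 1.18, Bub1 at 1.15 and Ube2c at 1.10. Ccnb1 (cyclin B1) had a median of 411 TPM in positive and 79.3 TPM in negative cells, with overlapping ranges of 0 to 1107 and 0 to 652 TPM. A median of 20 of the 20 genes was detected in positive cells and of 17 in negative cells. None of the 18 S phase genes reached 2-fold in either direction, and their median was 0.17. Depth per cell moved the same way as the G2 and M genes, with medians of 1.04 and 0.83 M counts, and its part in this shift was not tested. In the same split at days 1, 3, 5 and 7 of prefix b2, 0, 11, 0 and 1 of the 20 G2 and M genes were higher. The shares of all measured genes were 9.69%, 15.8%, 11.1% and 21.1%. Medians of the 20 genes were -0.40, 1.02, -0.05 and 0.24, and 3 of them were lower at day 1.

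Other lists moved little or rested on few genes. Their counts stand beside 7.17% of all measured genes higher and 9.7% lower. Of 17 glycolysis genes 1, Pfkl, was higher and the median was 0.08. Of 8 genes of DNA methylation and its removal Tet1, a methylcytosine dioxygenase, was higher at 1.79, with 144 CPM against 40.99 CPM in 16 positive and 19 negative cells. Dnmt1 at 0.32, Dnmt3a at 0.20 and Dnmt3b at 0.20 were under 2-fold. Of 11 immediate early genes Jun at -1.198, Atf3 at -1.08 and Ier3 at -1.51 were lower. Of 9 genes of the p53 response and senescence Perp was lower, and Cdkn1a was at -0.18. Of 7 genes of unfolded protein and amino acid stress Asns was higher at 1.04 and Ddit3 was lower at -1.03.

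Markers of other cell types were counted on both sides. Of all measured genes 7.17% were higher and 9.7% were lower. None of the 10 macrophage and blood genes was measured, Lyz2, Adgre1 and C1qa had no count in any cell, and their summed level was 0 to 76.3 TPM in positive and 0 to 76.98 TPM in negative cells. Of 7 measured endothelial genes 4 were lower (Tek, Emcn, Flt1 and Esam), and the summed level was 0 to 227 TPM in positive and 0 to 537 TPM in negative cells. At 8 or more of the 10 endothelial genes there were 3 cells, 1 positive and 2 negative. Of 6 measured neural genes Stmn2 was higher and Map2, Nefm and Nefl were lower, with summed levels of 4.12 to 352 and 2.34 to 1188 TPM. From the germline list Morc1 alone was measured, at 21.6 CPM against 0.21 CPM in 10 positive and 1 negative cells. Col1a1, a defining marker of the labelled fibroblasts, was at 1 TPM or more in 9 positive and 14 negative cells. The part of endothelial and neural transcripts in the ratios was not tested.

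The same threshold was then applied to the 4 other sets with at least 10 cells on each side, all of prefix b2. They held 12 positive and 46 negative cells at day 1, 27 and 31 at day 3, 50 and 29 at day 5, and 51 and 14 at day 7. No cell was shared with day 4. Of the 12 genes highest at day 4 none was higher by 2-fold at day 1, 12 were at day 3, 11 at day 5 and 11 at day 7. At day 1 3 of them were lower, Utf1 at -1.04, Tfcp2l1 at -2.27 and Zfp980 at -1.05. Their day 1 levels were low on both sides. Utf1 had 0.15 CPM in positive and 1.36 CPM in negative cells, Tfcp2l1 0.23 and 4.91, and Zfp980 0.19 and 1.47. The shares of all measured genes that were higher were 9.69% at day 1, 15.8% at day 3, 11.1% at day 5 and 21.1% at day 7. Porcn had log2 ratios of 0.90, 5.50, 4.01 and 4.30 in the 4 sets, in order of day. Dppa5a had 0.29, 2.71, 9.08 and 9.51, and Zfp42 had -0.07, 3.72, 5.74 and 4.26. At day 1 both were nearly absent, with 0.34 CPM of Dppa5a in positive and 0.09 CPM in negative cells. Zfp42 had 0 and 0.05 CPM there. Itpk1 was the exception after day 1, with 2.27 at day 3 but 0.19 at day 5 and 0.94 at day 7.

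Of the 12 lowest genes 5, 7, 9 and 8 were lower by 2-fold in the 4 sets, against 15.7%, 17.6%, 16.4% and 18.8% of all measured genes. Anxa2 had -0.46, -2.80, -2.69 and -3.13, and Anxa1 had 0.73, -2.79, -4.02 and -3.80. Vcam1 was lower at day 5 alone, at -3.37. Col1a1 had -0.59, -4.08, -4.34 and -5.29, and Tagln had -1.83, -3.26, -4.56 and -4.20. The fibroblast genes with the largest day 4 differences did not all follow. Col6a1 had -1.60, -4.64, -0.41 and 0.40, Col6a2 -0.16, -5.32, -0.94 and 0.01, and Thy1 -2.00, -3.26, -1.90 and 0.09. Of the 30 measured fibroblast genes 9, 19, 20 and 17 were lower and 2, 1, 0 and 2 were higher. T, high in positive cells at day 4, had 0.00, 2.34, -1.58 and -3.68, with 0 CPM on both sides at day 1. Of the 11 measured genes of its list 2, 6, 4 and 6 were higher in the 4 sets, and 5, 3, 2 and 2 were lower. Over all 785 genes higher at day 4, the shares that were also higher were 15.2%, 34.4%, 30.6% and 38.5%. The shares of these genes that were lower were 26.6%, 19.5%, 17.5% and 18.98%. At day 1 more of them were thus lower than higher, as was so for all measured genes (15.7% lower and 9.69% higher). Over the 1062 lower genes the shares also lower were 25.7%, 38.6%, 36.7% and 33.1%, and the shares higher were 15.7%, 15.3%, 11.6% and 20.8%.

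Of the pluripotency genes under 2-fold at day 4, some reached 2-fold in other sets. Sox2 stood at 0.44 at day 4 and at 1.73, 0.48 and 3.70 at days 3, 5 and 7. Tdh stood at 0.89 at day 4 and at 2.95, 4.18 and 6.33, and Trim71 at 0.33 at day 4 and at 1.33, 0.14 and 0.47. Of the 21 genes of the list 20, 18 and 19 were higher in these sets, and none was at day 1, where 3 were lower. The 3 included Utf1 and Tfcp2l1, at the low day 1 levels given above. Of the cocktail factors Sall4, at 1.42 at day 4, was at 0.88, 1.198 and 2.73, and Nanog, at 0.39 at day 4, was at 0.06, 1.73 and 3.46. The sets differ in day, prefix and depth, and no difference between them was tested.

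**Figure D5:**
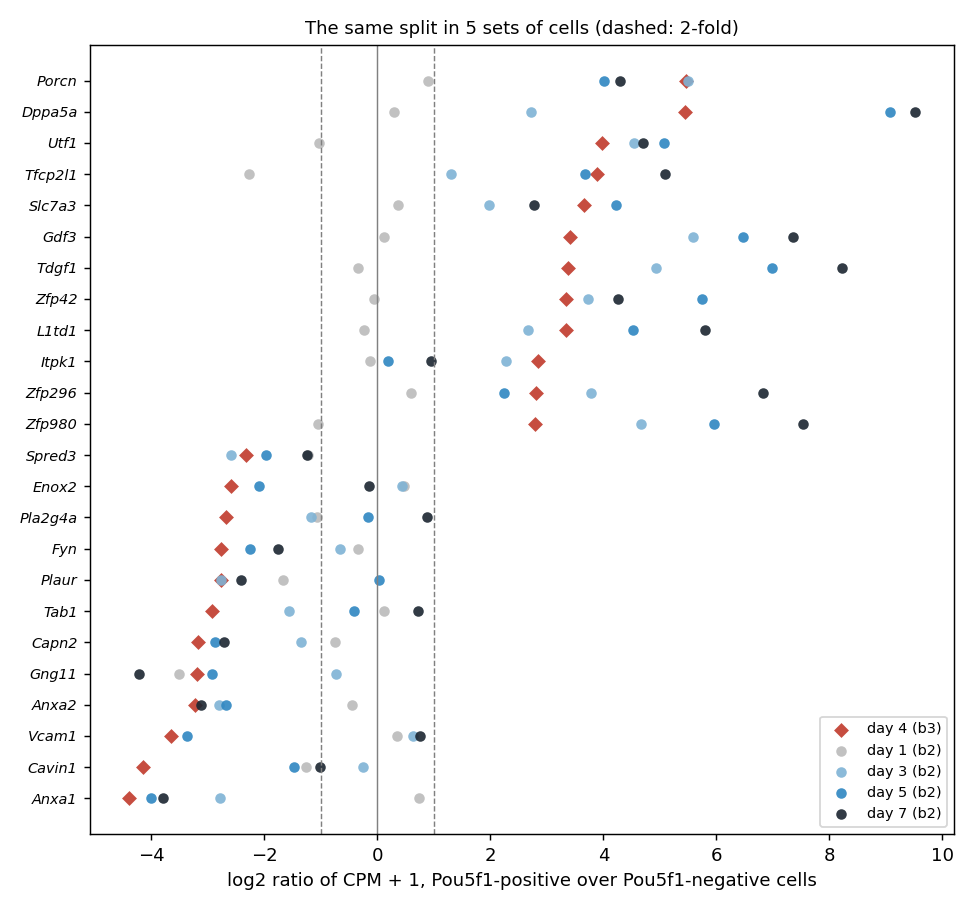
Log2 ratio of CPM + 1 (positive over negative cells) of the 12 highest and 12 lowest day 4 genes in the day 4 set (red diamonds) and in the day 1, 3, 5 and 7 sets of prefix b2 (circles). For the 12 highest genes the day 3 circles lie at or beyond 2-fold. The day 1 circles lie under 2-fold on the higher side, and 3 lie past 2-fold on the lower side. These 3 genes had under 5 CPM on both sides at day 1.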

How the data were processed

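Each of the 461 samples is 1 mouse cell. The authors used bcl2fastq and RSEM 1.2.22 (per the submitters' processing notes); aligner, genome build and annotation: not given in the sources used here. The authors deposited RSEM expected counts by Ensembl gene (9.11% of the values are not whole numbers) and TPM values by symbol, scaled by the authors within each cell. Of 31673 genes 31426 identifiers had a symbol in the reference and 31136 matched a TPM row, 469 through an older symbol. Promoter sequences are from RefSeq.

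Cells were split at a Pou5f1 TPM of 1. For each side the expected counts of its cells were summed, unrounded, and scaled to CPM by the total count; a prior of 1 CPM was added to both sides before the log2 ratio. Measured genes had 5 CPM or more over all 59 cells and a TPM of 1 or more in at least 6 cells. No cell was removed and no doublet caller was run. Positive cells held 25.8 and negative cells 32.6 M (mega) counts. With 1 pool of cells a side no statistical test was made, and a ratio of 2-fold was used as the mark of size. The ratio was tested on simulated data. Named genes were the 12 highest and 12 lowest under the rule in the text (leaving out predicted, pseudogene, ribosomal protein and histone genes), members of 18 lists and fixed markers. Some list members, Prdm14 among them, were named after their values were seen. The cells with 20 or more pluripotency genes, with high Col1a1 and with most Pou5f1 were likewise singled out after the data were seen. The members and lists were chosen with earlier results of these data known. Alternatives changed the scaling, prior, filter, depth, threshold and cells. Python 3.11.15, numpy 2.4.6, pandas 2.3.3, scipy 1.17.1 and matplotlib 3.10.9 were used.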

Additional observations from a re-analysis of the deposited data

Results flagged for a closer look

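Krt8, a keratin of simple epithelia, had a log2 ratio of 2.95 between Pou5f1-positive and Pou5f1-negative cells at day 4, and a ratio of the opposite sign in each of the 4 other sets. These were -2.96 at day 1, -1.47 at day 3, -1.05 at day 5 and -4.87 at day 7. At day 4 it was found in 9 positive and 3 negative cells, with 18.6 and 1.53 CPM, and 65.6% of the positive counts came from 1 cell; without the highest cell of each side the ratio was 2.71. At day 7 it stood at 643 CPM in negative and 20.95 CPM in positive cells. The difference between the sets was not tested.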

How the results depend on the processing

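Scaling by the median of gene ratios changed the median log2 ratio of all measured genes from -0.00012 to -6.9e-07 and kept each of the 69 named genes past 2-fold. Over the other alternatives 59 to 69 of the 69 stayed past 2-fold. The count of higher genes, 785, was 1586 without the filter and 280 with a filter of 20 CPM and 12 cells, and the count of lower genes, 1062, was 2190 and 359 under these and 687 with a prior of 5 CPM. With the stricter filter 8 pluripotency genes were higher in place of 15, 0 epithelial genes in place of 6, and 7 fibroblast genes were lower in place of 11; without a filter 10 epithelial genes were higher. The fibroblast count was 17 after thinning and 17 without the highest cell of each gene, 6 when any Pou5f1 TPM above 0 counted as positive, and 5 without the 5 cells of high Col1a1. Among these named genes the log2 ratios that changed sign were those of Mixl1 (-1.62 without its highest cells, -2.04 without the deepest positive cell), Thy1 (0.24) and Col1a1 (0.37) without the cells of high Col1a1, and Zfp42 (-0.21) and Epcam (-0.49) without the 8 cells of 20 or more pluripotency genes. Among other list members past 2-fold, Col1a2 (1.58), Tgfb1i1 (0.08) and Myl9 (0.42) changed sign without the cells of high Col1a1. The alternatives that leave out named kinds of cells were chosen after seeing the data. Filters change the number of genes counted; other causes were not tested. Depth limits the split itself, since 3 counts equal up to 9.41 CPM in a negative cell. No paired analysis was possible because each side is 1 pool of cells and the labels do not say that equal cell numbers in the titles pair cells.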

Other observations

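The 5 Pou5f1-negative cells of high Col1a1 differed in their cocktail transcripts. Nanog was at 4.53, 4.79 and 6.80 TPM in 3 of them and at 756 and 2003 TPM in the other 2, against a median of 259 TPM and a minimum of 25.6 TPM in the remaining 30 negative cells. The summed level of the 7 cocktail genes was 138, 146 and 771 TPM in the first 3 and 1317 and 3193 TPM in the other 2, against a median of 1291 TPM in positive cells. Sox2 was at 1 TPM or more in 1 of the 5 cells.

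Among negative cells 1 held 18 of the 25 pluripotency genes, the most of any cell without Pou5f1 counts. It had 27.2 TPM of Zfp42, 25.9 TPM of Dppa5a and 86.3 TPM of Cdh1, and also 8 of the 10 endothelial genes with a summed level of 537 TPM, at 0.83 M (mega) counts. Zfp42 and Dppa5a were both at 1 TPM or more in 14 cells, of which 11 were positive and 3 negative.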
